A study of Mus musculus with 6 samples.

Results

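The nuclear genes for subunits of the mitochondrial respiratory chain were described in splenic type-2 conventional dendritic cells (cDC2s) with and without the transcription factor IRF4. They were taken by symbol from the deposited table of raw counts: every row beginning Nduf followed by a, b, c, s or v and a digit (complex I), Sdha to Sdhd (complex II), every row beginning Uqcr (complex III), Cox4 to Cox8 followed by a letter (complex IV) or Atp5 (complex V), with at least 10 counts summed over the 6 libraries. The rule found 81 of the 14535 rows, with 35 genes in complex I, 4 in complex II, 8 in complex III, 17 in complex IV and 17 in complex V. It also takes in a few genes that are not standard subunits. Cox4nb is named for its place beside Cox4i1 and encodes a part of the endoplasmic reticulum membrane complex, Atp5s and Atp5sl are not standard subunits of ATP synthase, and Cox7a2l acts in supercomplex assembly. Ndufa4 is counted with complex I by its name, although its protein is held in complex IV.

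The study sequenced RNA of cDC2s from the spleens of C57BL/6 mice. The IRF4-deficient group (3 libraries) came from CD11c-Cre Irf4 fl/fl mice, in which Cre is driven by the promoter of the integrin gene Itgax (CD11c) and can act in every cell that uses it, and the WT group (3 libraries) was labelled wild type, with nothing said of Cre. Age, sex and the number of animals behind a library are not given in the labels, and p-values therefore speak only of the scatter among these libraries. The libraries held 7949462 to 10609420 counts in the IRF4-deficient group and 7421605 to 11459920 in the WT group. Values below are CPM, that is counts scaled to a common library total with TMM, a factor that sets most genes level between libraries. Irf4 itself had 90.8, 65.3 and 84.0 CPM in IRF4-deficient libraries, against 291.8, 295.8 and 345.0 CPM in WT libraries, a log2 fold change of -1.95 (SE 0.12; edgeR adjusted p = 1.45007e-09). The groups were well apart, and the counts per gene do not say whether the remaining Irf4 reads lie outside the deleted exons or come from cells that kept the gene. The 16 cDC2 marker genes were all detected and summed to 31670 to 32880 CPM in IRF4-deficient libraries and 34060 to 37980 CPM in WT libraries.

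The respiratory chain sits in the inner mitochondrial membrane. Complex I takes electrons from NADH and complex II from succinate, coenzyme Q carries them to complex III, cytochrome c carries them on to complex IV, which reduces oxygen, and the proton gradient that complexes I, III and IV build drives ATP synthesis by complex V. Most subunits are encoded in the nucleus and imported, while the mitochondrial genome encodes part of every complex but II, and in dendritic cells the balance between respiration and glycolysis is known to shift on activation. The subunits encoded by mitochondrial DNA were not analysed here.

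Few subunit genes differed between the groups, and those that did were higher without IRF4. Of the 81 genes, 78 passed the filter on low counts and 4 were called higher at an adjusted p under 0.05 in edgeR's quasi-likelihood test (5.13% of those tested), among them Cox6a2, Atp5b and Atp5a1. None was called lower, and none had an unadjusted p under 0.05 for a lower level, by edgeR or by DESeq2. Over all 11934 genes tested, 20.4% were called, 9.87% higher and 10.5% lower, so the subunit genes were called at a smaller share than the table as a whole. Among genes at 30 CPM or more, 3 of the 39 subunit genes were called (7.69%), against 27.4% of all 5513 such genes. The 3 genes not tested were Cox4i2, Cox7a1 and Cox8b, with 15, 22 and 19 counts in all.

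Although few passed the test, the estimates leaned to one side. The log2 fold change was above 0 for 64 of the 78 tested genes (82.1%), against 50.3% of all tested genes, and the median was 0.17, a fold of 1.13, against 0.00 over all tested genes. An unadjusted p under 0.05 was reached by 13 tested subunit genes, all higher in IRF4-deficient cells (16.7%, against 15.7% higher and 16.0% lower over all tested genes). In 15 tested genes every IRF4-deficient library lay above every WT library (19.2%, against 17.5% of all tested genes), and none had the opposite order, which 18.1% of all tested genes had. On the higher side both shares were thus near those of the whole table. Cox7a1 and Cox8b, too low to be tested, had every IRF4-deficient library below every WT library. Of the 74 genes not called, 35 had a 95% interval that stayed within 1.5-fold in either direction and 39 had an interval that reached beyond it, 6 of them beyond 2-fold. The plot of differences by complex shows a shift of most points to the right of 0 with intervals that mostly cross it.

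**Figure D1:**
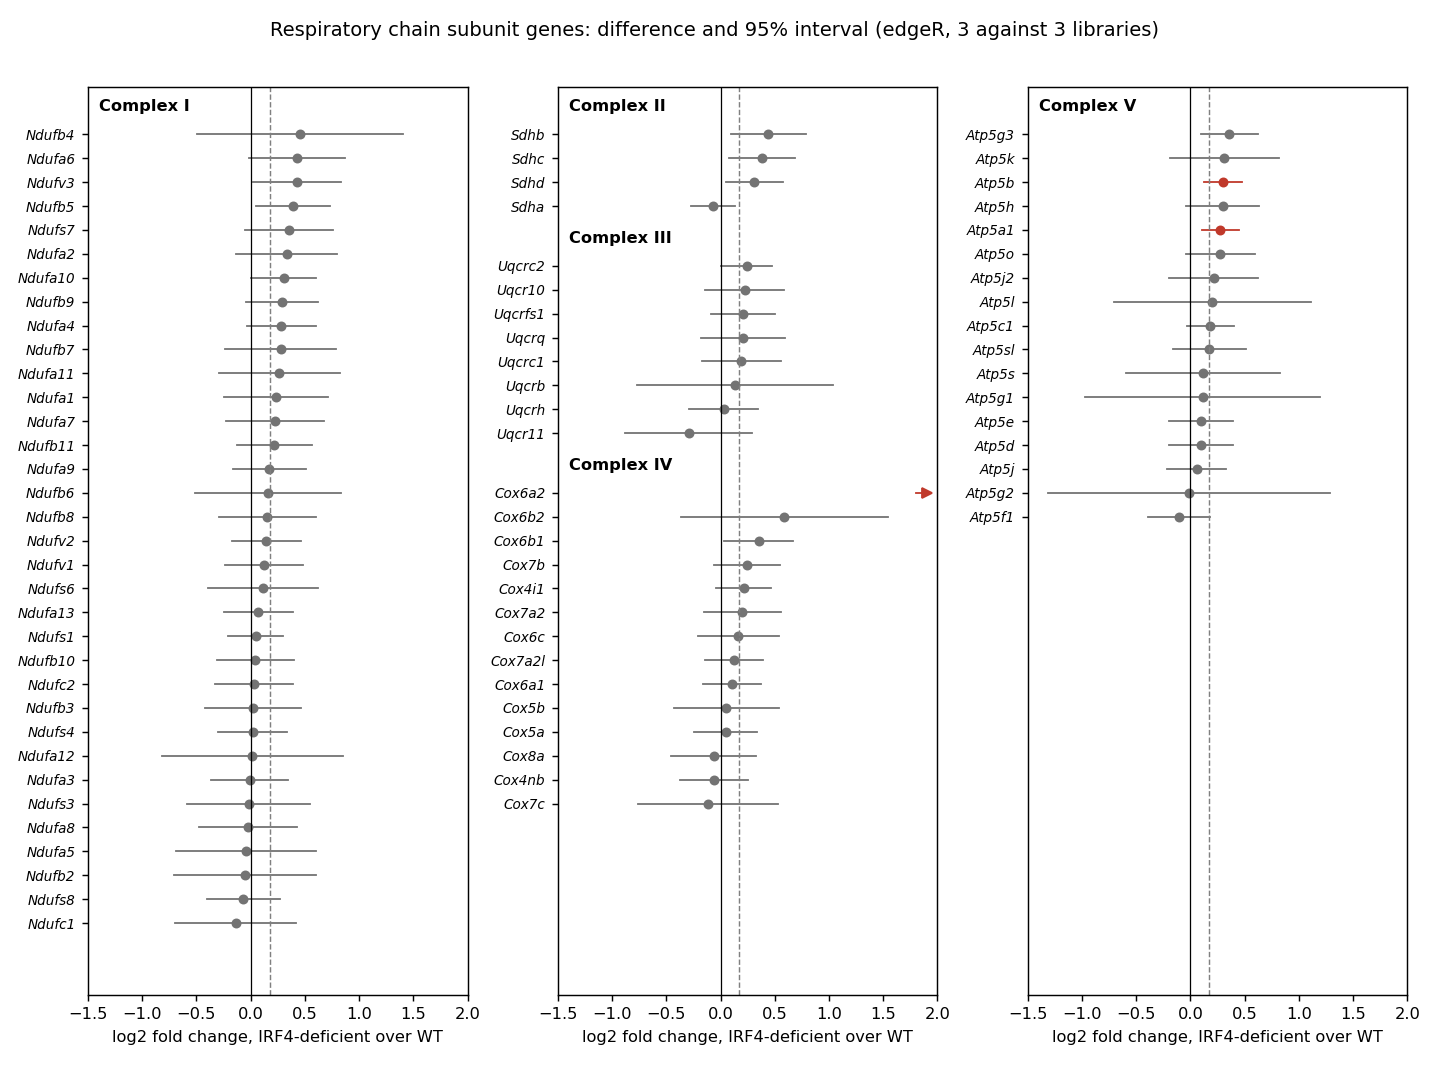
Log2 fold change of the tested subunit genes but 1, IRF4-deficient over WT, with its 95% interval (edgeR, 3 libraries in each group), by complex. Red marks 3 genes called at an adjusted p under 0.05, the dashed line is the median of 0.17, and the arrow for Cox6a2 stands for 3.04, beyond the axis; most points lie right of 0.

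The number of called genes depended on single libraries. It was 1 (Cox6a2) without WT replicate 2, 2 (Atp5b and Cox6a2) without WT replicate 3, 3 without IRF4-deficient replicate 1 and 8 without IRF4-deficient replicate 3, when Cox6b1, Ndufb5, Sdhc and Sdhd joined the 4. The median log2 fold change was 0.092 without WT replicate 3, with 54 of 78 genes above 0, and 0.25 without WT replicate 1, with 68 above 0. The WT libraries were unlike each other in these genes. The median deviation of a subunit gene from its WT mean, on the log2(CPM + 0.5) scale, was 0.224, 0.146 and 0.147 in IRF4-deficient replicates 1 to 3, against 0.121, 0.00173 and -0.159 in WT replicates 1 to 3. All 3 IRF4-deficient libraries lay above all 3 WT libraries, but the gap between the lowest IRF4-deficient library and WT replicate 1 was small beside the range within WT. WT replicate 1 was the highest WT library for 52 of the 78 genes (66.7%, against 33.3% of all tested genes), and WT replicate 3 was the highest for 5 (6.41%, against 34.6%).

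The genes for cytosolic ribosomal proteins put the WT libraries in the same order. Their median deviation was 0.112, 0.0354 and -0.00591 in IRF4-deficient replicates 1 to 3, against 0.218, 0.0444 and -0.263 in WT replicates 1 to 3. In that list the groups overlapped, since WT replicate 1 lay above all IRF4-deficient libraries, and 0 of 79 tested genes were called by edgeR in either direction, with unadjusted p under 0.05 for 3 higher and 2 lower. What sets the WT libraries apart was not tested.

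**Figure D2:**
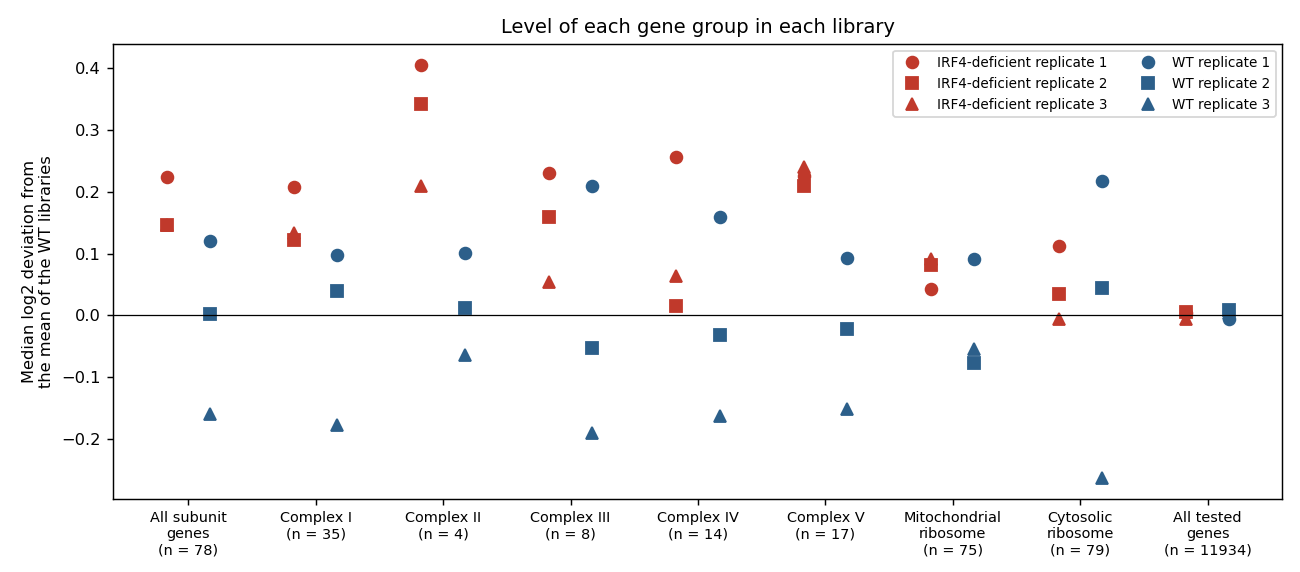
Median, over the genes of each group, of the log2(CPM + 0.5) deviation from the mean of the WT libraries, with 1 point per library (IRF4-deficient left, WT right; n is the number of tested genes). Subunit genes are lowest in WT replicate 3 and, among WT libraries, highest in replicate 1, an order that the cytosolic ribosome shares.

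Markers of other spleen cells also differed between the groups, in both directions. The 11 red pulp macrophage markers in the table summed to 1593, 2280 and 3022 CPM in IRF4-deficient replicates 1 to 3, against 1084, 1270 and 948 CPM in WT replicates 1 to 3, with 7 called higher, 0 lower and none at 0. The 12 monocyte markers summed to 3927 to 5107 CPM in IRF4-deficient libraries and 3944 to 4189 CPM in WT libraries. These sums overlapped, but 6 of the 12 were called higher and 1 lower, and their median log2 difference was 1.13. The 7 cDC1 markers summed to 195 to 268 CPM in IRF4-deficient libraries and 153 to 160.4 CPM in WT libraries, with 4 called higher and 0 lower. The 10 B cell markers went the other way, at 380.2 to 447.9 CPM in IRF4-deficient libraries and 472.6 to 552.4 CPM in WT libraries, with 1 called higher and 4 lower. The subunit genes together summed to 4290, 4047 and 3952 CPM in IRF4-deficient replicates 1 to 3, against 3821, 3606 and 3305 CPM in WT replicates 1 to 3. Within the IRF4-deficient group the library with the lowest macrophage marker sum had the highest subunit sum. Within WT, replicate 3 was the lowest in both sums. The part of other cells in the subunit values was not tested, and in bulk RNA a different number of cells of a type and a different amount of RNA per cell cannot be told apart.

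Complex I held 1 called gene among 35 tested (2.86%, against 9.87% called higher over all tested genes). The core genes of the matrix arm encode the proteins that carry the flavin and the iron-sulphur clusters and pass electrons from NADH towards coenzyme Q. They had a median log2 fold change of 0.12, with 5 of 7 above 0. The 9 accessory genes of the matrix arm had a median of 0.17 and the 18 of the membrane arm 0.16. Ndufb5, an accessory subunit of the membrane arm, had the smallest p among the genes of the complex that were not called. It had 48.5, 37.1 and 35.2 CPM in IRF4-deficient libraries, against 33.2, 32.4 and 26.5 CPM in WT libraries. The groups did not overlap, but the difference did not pass (log2 0.39, SE 0.16; edgeR adjusted p = 0.0990). Ndufc2 and Ndufa13, the genes of the membrane arm with the highest levels per kilobase of exon in the complex, overlapped between groups, with log2 differences of 0.03 and 0.07. Ndufa4 had a log2 difference of 0.28 (SE 0.15; edgeR adjusted p = 0.219) and overlapping groups.

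Complex II, succinate dehydrogenase, is made wholly from nuclear genes and also works in the citric acid cycle. None of its 4 genes passed the test, but they did not share a pattern. Sdha, the flavoprotein that oxidises succinate, had 214, 192 and 239 CPM in IRF4-deficient libraries, against 217, 238 and 220.2 CPM in WT libraries. The groups overlapped fully (log2 -0.07, SE 0.10; edgeR adjusted p = 0.682), and the 95% interval ran from -0.27 to 0.13. Sdhb, the iron-sulphur subunit that hands the electrons on, had 34.4, 40.9 and 35.7 CPM in IRF4-deficient libraries, against 32.6, 24.0 and 25.3 CPM in WT libraries. Sdhc, a membrane anchor, had 51.5, 49.9 and 44.5 CPM in IRF4-deficient libraries, against 40.7, 40.2 and 31.1 CPM in WT libraries. Sdhd, the other anchor, had 77.0, 65.7 and 61.1 CPM in IRF4-deficient libraries, against 57.5, 52.5 and 54.4 CPM in WT libraries. In these 3 genes every IRF4-deficient library lay above every WT library. Their log2 differences were 0.44 for Sdhb (SE 0.16), 0.38 for Sdhc (SE 0.14) and 0.31 for Sdhd (SE 0.13), with edgeR adjusted p of 0.0633, 0.0711 and 0.0907. Sdhb passed when WT replicate 1 was left out, and Sdhc and Sdhd passed when IRF4-deficient replicate 3 was left out. Over all alternatives the adjusted p ran from 0.0299 to 0.255 for Sdhb, 0.0467 to 0.295 for Sdhc and 0.0399 to 0.325 for Sdhd. On leaving out 1 library, the lowest log2 differences were 0.35 for Sdhb, 0.27 for Sdhc and 0.22 for Sdhd. The summed CPM of Sdhb, Sdhc and Sdhd over that of Sdha was 0.763, 0.817 and 0.592 in IRF4-deficient libraries, against 0.604, 0.490 and 0.503 in WT libraries. This ratio overlapped between the groups, since IRF4-deficient replicate 3 lay below WT replicate 1. It was formed after the values were seen and was not tested.

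The promoters of Sdha, Sdhb and Sdhd are shown because these genes make 1 complex and differed in their estimates. No promoter was available here for Sdhc, the remaining gene of the complex. The choice was made after the values were seen, and whether motif matches go with the differences was not tested. Each covers 250 bases before to 50 bases after the RefSeq start (GRCm38.p6), 5′ to 3′ on the gene's strand, and capitals mark a match on either strand to any of the 7 motifs given below.
Sdha, chr13:74350191-74350490, minus strand: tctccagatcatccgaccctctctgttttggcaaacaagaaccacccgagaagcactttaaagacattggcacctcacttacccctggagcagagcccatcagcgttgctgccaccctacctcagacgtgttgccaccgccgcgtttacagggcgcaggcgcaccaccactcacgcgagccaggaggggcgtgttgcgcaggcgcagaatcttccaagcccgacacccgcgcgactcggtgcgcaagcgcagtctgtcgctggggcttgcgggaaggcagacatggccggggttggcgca
Sdhb, chr4:140961021-140961320, plus strand: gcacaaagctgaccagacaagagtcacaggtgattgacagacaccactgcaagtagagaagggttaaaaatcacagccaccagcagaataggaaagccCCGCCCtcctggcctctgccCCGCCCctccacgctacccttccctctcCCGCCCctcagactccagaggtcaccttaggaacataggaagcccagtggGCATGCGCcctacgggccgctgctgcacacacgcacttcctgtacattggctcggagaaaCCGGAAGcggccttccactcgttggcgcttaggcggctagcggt
Sdhd, chr9:50603800-50604099, minus strand: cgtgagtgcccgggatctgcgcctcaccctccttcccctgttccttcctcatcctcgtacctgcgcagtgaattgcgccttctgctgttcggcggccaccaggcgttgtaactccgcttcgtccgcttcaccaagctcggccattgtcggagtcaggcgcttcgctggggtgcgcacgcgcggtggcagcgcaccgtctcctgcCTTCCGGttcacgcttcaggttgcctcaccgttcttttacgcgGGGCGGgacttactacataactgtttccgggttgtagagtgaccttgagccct
Sdha had no match. Sdhb had 3 matches to the SP1 GC box, 1 to the NRF1 core and 1 to the ETS site, and Sdhd had 1 match to the ETS site and 1 to the GC box.

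The RefSeq table held 73 promoters for 67 of the 81 subunit genes. The motifs searched, on both strands, were the core of the NRF1 site (GCGCATGC), the ETS site bound by GABP (CCGGAAG), the core of the YY1 site (AAGATGG), the SP1 GC box (GGGCGG), the cAMP response element (TGACGTCA), the core of the interferon-stimulated response element (GAAANNGAA) and the core of the ETS-IRF composite element (GGAANNGAA), of which the last shares GGAA with the ETS site. NRF1, GABP and YY1 are known regulators of nuclear genes for mitochondrial proteins, and IRF4 can bind the composite element together with an ETS factor. The NRF1 core was in 13.7% of subunit promoters, 5.21% of the 12061 promoters of tested genes and 2.71% of all 32851 promoters, and the YY1 core in 17.8%, 7.29% and 6.34% of these. The ETS site was in 21.9% of subunit promoters, 18.1% of those of tested genes and 8.86% of all, and the cAMP response element in 5.48%, 3.04% and 1.79%. The GC box was in 38.4% of subunit promoters, below the 61.3% of those of tested genes and near the 35.7% of all. The interferon-stimulated core was in 9.59% of subunit promoters, 7.37% of those of tested genes and 8.56% of all, and the composite core in 5.48%, 7.58% and 8.24%. These shares describe letters in a window and were not tested.

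**Figure D3:**
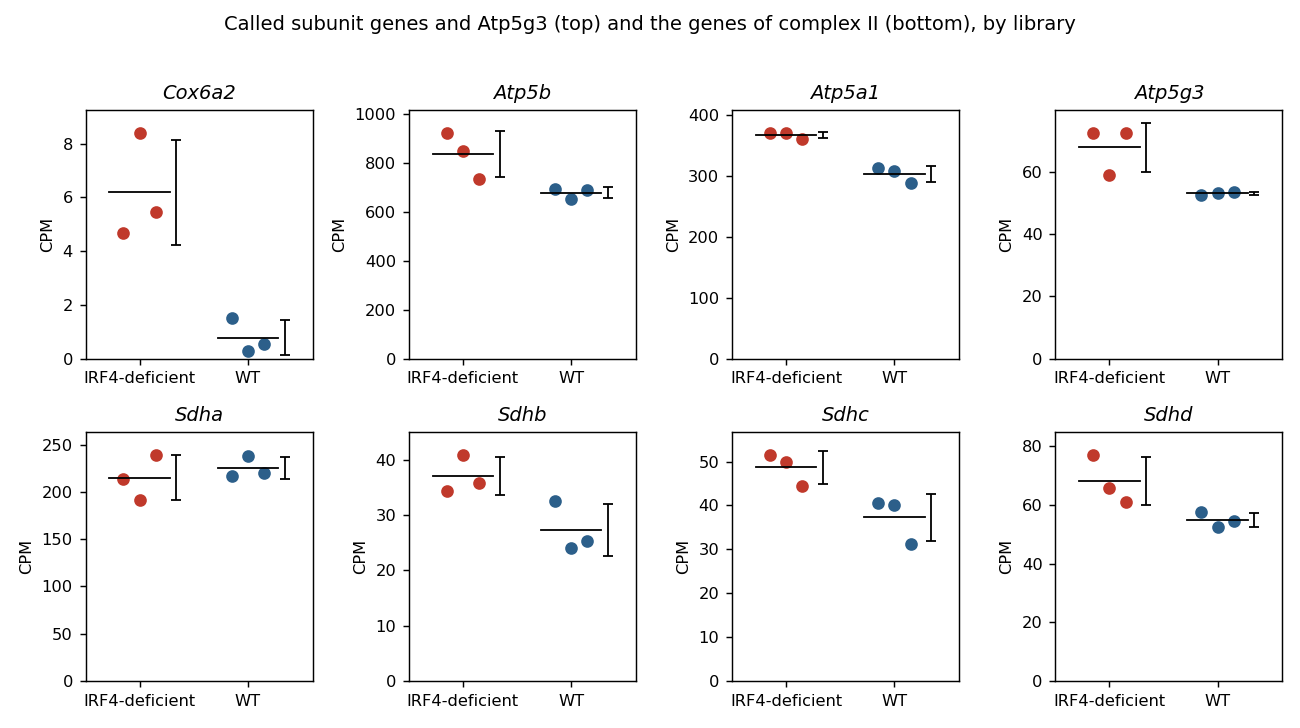
CPM in each library for 3 called subunit genes and Atp5g3 (top) and the 4 genes of complex II (bottom), IRF4-deficient left and WT right; the line is the mean and the bar the SD of 3 libraries, and each axis starts at 0. Sdha overlaps between groups, whereas every IRF4-deficient point of Sdhb, Sdhc and Sdhd lies above every WT point.

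Complex III had 0 called genes among 8, 7 of them with an estimate above 0 and a median log2 fold change of 0.20. Uqcrc2, a core subunit on the matrix side, had 103, 102 and 89.0 CPM in IRF4-deficient libraries, against 88.4, 83.5 and 76.9 CPM in WT libraries. Its groups were separated by less than 1 CPM (log2 0.24, SE 0.11; edgeR adjusted p = 0.144). Uqcrfs1, the Rieske iron-sulphur protein that takes electrons from coenzyme Q, had 48.7, 45.0 and 39.5 CPM in IRF4-deficient libraries, against 41.6, 35.9 and 37.8 CPM in WT libraries. These groups overlapped (log2 0.21, SE 0.14; edgeR adjusted p = 0.338). Uqcr10 and Uqcrh, small accessory subunits with the highest levels per kilobase in the complex, had log2 differences of 0.22 and 0.03 and overlapping groups. Uqcr11, named here after its values were seen, was the subunit gene with the lowest estimate of all, at -0.29 (SE 0.28; edgeR adjusted p = 0.524), with its highest value in WT replicate 1.

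Complex IV had 1 called gene among 14 tested (7.14%, against 9.87% called higher over all tested genes). It was a tissue-restricted isoform at a low level. Several subunits of cytochrome c oxidase come in a widely used form and a form known from heart and skeletal muscle, lung or testis. Cox6a2, the muscle form of subunit VIa and also a known plasmacytoid dendritic cell gene, had 51, 68 and 49 counts in IRF4-deficient libraries, against 11, 3 and 4 counts in WT libraries. In CPM these were 4.69, 8.40 and 5.46 in IRF4-deficient libraries, against 1.52, 0.273 and 0.546 in WT libraries. The groups were far apart, with a fitted fold of 8.22 (log2 3.04, SE 0.56; edgeR adjusted p = 0.000552). The log2 fold change was 3.94 without WT replicate 1, the WT library with the most counts of the gene, and 2.56 without WT replicate 2. The call held in all 14 alternatives that tested the gene, and the gene did not pass a filter of 5 CPM in 3 libraries. Cox6a1, the widely used form, had 76.5, 74.0 and 92.8 CPM in IRF4-deficient libraries, against 86.0, 71.7 and 68.8 CPM in WT libraries, and the groups overlapped (log2 0.10, SE 0.13; edgeR adjusted p = 0.630). Per kilobase of exon, Cox6a2 averaged 9.10 CPM in IRF4-deficient libraries and 1.15 CPM in WT libraries, beside Cox6a1 with 116 CPM in IRF4-deficient libraries and 108 CPM in WT libraries.

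The place of Cox6a2 bears on that value. It lies at chromosome 7, 128205435 to 128206387, minus strand (GENCODE M21, GRCm38), inside the annotated span of the integrin gene Itgad (128154376 to 128223816, plus strand), and 70 of its exon bases, or 10.3%, are also exon bases of Itgad. Itgad had 237, 309 and 341 CPM in IRF4-deficient libraries, against 53.5, 72.4 and 62.3 CPM in WT libraries, a fold of 4.69 (edgeR adjusted p = 1.31065e-08). A further minus-strand gene within the Itgad span, 4931431B13Rik, had 2.58, 2.47 and 1.78 CPM in IRF4-deficient libraries, against 0, 0.364 and 0.137 CPM in WT libraries (edgeR adjusted p = 0.00305). The strand setting of the counting is not given in the sources used here, so reads of Cox6a2 and of Itgad transcripts across the locus cannot be told apart. Of the other neighbours, Itgam was called higher at 3.03-fold and Itgax at 1.22-fold, while 9130023H24Rik, Armc5 and Tgfb1i1 on the far side were not called. The Cre of the IRF4-deficient group is driven by the Itgax promoter, and nothing is said of Cre in WT. At this locus a difference tied to Cre and one tied to loss of IRF4 cannot be told apart, and neither was tested. The 8 other plasmacytoid dendritic cell markers in the table summed to 321.8 to 344.8 CPM in IRF4-deficient libraries and 300.8 to 365.8 CPM in WT libraries, ranges that overlap, with Siglech called higher and Ccr9 lower among the 7 tested. With Cox6a2 counted in, 7 of 8 tested genes of that list had an estimate above 0, 4 had an unadjusted p under 0.05 for a higher level and 1 for a lower level, and the median log2 fold change was 0.54.

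The other isoform groups of complex IV were carried by their widely used forms. Cox4i1 averaged 111 ± 11.8 CPM in IRF4-deficient libraries and 95.5 ± 13.4 CPM in WT libraries (SD, n = 3 each), and the groups overlapped (log2 0.21, SE 0.12; edgeR adjusted p = 0.247). It shares 154 exon bases with Cox4nb on the opposite strand. Cox4i2, its hypoxia-linked lung form, had 4 counts in all in IRF4-deficient libraries and 11 in WT libraries. Cox7a2 and Cox7b had log2 differences of 0.20 and 0.25, and Cox7a2l 0.12, with overlapping groups in all 3. The muscle form Cox7a1 had 6 counts in IRF4-deficient libraries and 16 in WT libraries. Cox8a, the widely used form of subunit VIII, had 50.4, 52.3 and 46.9 CPM in IRF4-deficient libraries, against 71.9, 46.6 and 38.1 CPM in WT libraries, where the highest and the lowest value were both WT. The muscle form Cox8b had 0, 1 and 1 counts in IRF4-deficient libraries, against 5, 5 and 7 counts in WT libraries, too few for the main test.

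Cox6b1 had the second smallest p of complex IV. It had 55.2, 51.0 and 40.9 CPM in IRF4-deficient libraries, against 45.1, 34.7 and 35.9 CPM in WT libraries. The lowest IRF4-deficient library lay below WT replicate 1 (log2 0.35, SE 0.15; edgeR adjusted p = 0.119). Its testis form Cox6b2 had 6.63, 2.72 and 6.24 CPM in IRF4-deficient libraries, against 5.67, 1.91 and 3.005 CPM in WT libraries. These values overlapped and the 95% interval of the log2 difference, -0.37 to 1.55, reached beyond 2-fold (edgeR adjusted p = 0.416).

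Complex V, ATP synthase, held 2 called genes among 17 tested (11.8%, near the 9.87% called higher over all tested genes). They encode the alternating subunits of the F1 head. Atp5b, the beta subunit that carries the catalytic sites, was the most abundant subunit gene and had 923, 849 and 736 CPM in IRF4-deficient libraries, against 693, 652 and 689 CPM in WT libraries. Every IRF4-deficient library lay above every WT library, with IRF4-deficient replicate 3 closest to them. The fold was 1.23 (log2 0.30, SE 0.08; edgeR adjusted p = 0.0152). Atp5a1, the alpha subunit, had 369.6, 370.4 and 360.2 CPM in IRF4-deficient libraries, against 313, 307 and 288 CPM in WT libraries. Its values were tight within both groups and clearly apart, at a fold of 1.21 (log2 0.28, SE 0.08; edgeR adjusted p = 0.0176). Atp5b was not called without IRF4-deficient replicate 1 (adjusted p = 0.0994) or WT replicate 2 (adjusted p = 0.0820). Atp5a1 was not called without IRF4-deficient replicate 2, WT replicate 2 or WT replicate 3 (adjusted p = 0.0519, 0.0618 and 0.0813). Over all alternatives the adjusted p of Atp5b ran from 0.00139 to 0.0994 and that of Atp5a1 from 0.00769 to 0.0813. Atp5b lies on chromosome 10, 128083273 to 128090391, plus strand. Atp5a1 shares 129 exon bases with Haus1 on the opposite strand, which had 7.91 to 11.2 CPM in IRF4-deficient libraries and 7.10 to 8.85 CPM in WT libraries.

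The promoter of Atp5b is shown as that of the called subunit gene with the highest level, from RefSeq on GRCm38.p6, with the same span and capitals as above. Its 2 matches are both to the SP1 GC box.
Atp5b, chr10:128083057-128083356, plus strand: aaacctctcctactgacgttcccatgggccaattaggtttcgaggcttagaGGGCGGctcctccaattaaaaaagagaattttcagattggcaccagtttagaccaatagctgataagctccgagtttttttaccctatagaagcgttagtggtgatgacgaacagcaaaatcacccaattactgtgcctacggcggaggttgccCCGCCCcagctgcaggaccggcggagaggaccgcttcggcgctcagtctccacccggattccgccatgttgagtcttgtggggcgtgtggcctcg

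All 5 genes of the F1 head had an estimate above 0, and a median difference of 0.19 on the log2 scale, while Atp5c1, Atp5d and Atp5e, for the central stalk, were not called. The c ring, the rotor that protons turn, has 3 genes for the same mature protein, and nearly all of its reads came from Atp5g3. Atp5g3 had 72.3, 58.8 and 72.5 CPM in IRF4-deficient libraries, against 52.6, 53.1 and 53.4 CPM in WT libraries. The groups did not overlap and the difference lay at the threshold (log2 0.36, SE 0.13; edgeR adjusted p = 0.0506), with a call in DESeq2 (adjusted p = 0.0412) and adjusted p between 0.0213 and 0.147 over all alternatives. Atp5g1 and Atp5g2 had 103 and 77 counts in all. Their 95% intervals spanned from -0.97 to 1.20 and from -1.31 to 1.29 on the log2 scale, so that at this depth a 2-fold higher level was within the interval of both and a 2-fold lower level within that of Atp5g2. Part of the transcript sequence of both is also found in other genes, at 11.6% and 14.8% of 50-base words, which makes their counts uncertain. This limit is wider, since 24 of the 80 subunit genes checked shared more than 10% of such words with other genes. Atp5l, for example, shared 84.8%. The 4 genes of the peripheral stalk had a median of 0.17 and the 3 of the membrane part 0.21, with 0 called. Atp5j of the stalk shares 397 exon bases with Gabpa, which encodes the DNA-binding part of GABP and was not called either (log2 0.18; edgeR adjusted p = 0.189).

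By summed CPM, complex V had the highest ratio between the groups and complex II the lowest. Complex V summed to 1918, 1819 and 1719 CPM in IRF4-deficient libraries, against 1604, 1511 and 1477 CPM in WT libraries, a ratio of means of 1.19, and Atp5b made up 45.2% of it. The ratios were 1.14 for complex I, 1.12 for complex III and 1.10 for complex IV. Complex II summed to 376.6, 348 and 381 CPM in IRF4-deficient libraries, against 348, 355 and 331 CPM in WT libraries, a ratio of 1.07, of which Sdha made up 61.7%. By the median gene the order differed, with a log2 fold change of 0.35 for complex II, 0.20 for complex III, 0.19 for complex V, 0.15 for complex I and 0.14 for complex IV. With genes assigned to complexes by function it was 0.35 for complex II, 0.20 for complexes III, IV and V and 0.15 for complex I, so that complex IV was not the lowest. The complexes were not tested against each other, and without WT replicate 3 the median of complex V was 0.09.

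Per kilobase of exon, Atp5b had the highest level of all, at 197 ± 22.3 CPM in IRF4-deficient libraries and 160.0 ± 5.29 CPM in WT libraries (SD, n = 3 each). Atp5a1 had 117 ± 1.81 CPM per kilobase in IRF4-deficient libraries and 96.5 ± 4.12 in WT libraries. The 2 leading genes of each other complex were Cox6a1 and Cox8a in complex IV, Uqcr10 and Uqcrh in complex III, Sdha and Sdhd in complex II and Ndufc2 and Ndufa13 in complex I, from 112 down to 38.7 CPM per kilobase as a mean of the group means. Atp5c1 of complex V had 89.9 CPM per kilobase in IRF4-deficient libraries and 79.1 in WT libraries. Cox8a had 80.55 in IRF4-deficient libraries and 84.36 in WT libraries. Atp5c1 thus lay above Cox8a in IRF4-deficient libraries and below it in WT libraries. Levels are also uncertain for genes that share sequence with other genes, among them Ndufa13 (28.5% of 50-base words), Cox6a1 (12.3%) and Atp5g1 (11.6%). Levels and their order depend on the length used. Divided by the longest transcript instead, Atp5b had 436 CPM per kilobase in IRF4-deficient libraries and 354 in WT libraries. By that length Cox4i1 lay above Cox6a1 and Uqcrh above Uqcr10 in both groups. Ndufb9 lay above Ndufc2 in IRF4-deficient libraries (49.3 against 43.3) and below it in WT libraries (40.5 against 42.3). In IRF4-deficient libraries the median level was 15.1 CPM per kilobase in complex I, 34.3 in complex II, 22.8 in complex III, 10.3 in complex IV and 17.9 in complex V. In WT libraries it was 12.3 CPM per kilobase in complex I, 28.4 in complex II, 21.7 in complex III, 9.15 in complex IV and 15.7 in complex V. The spread among subunits of 1 complex was far wider than the difference between groups, reaching from 0.390 CPM per kilobase for Atp5g1 to 179 for Atp5b within complex V.

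**Figure D4:**
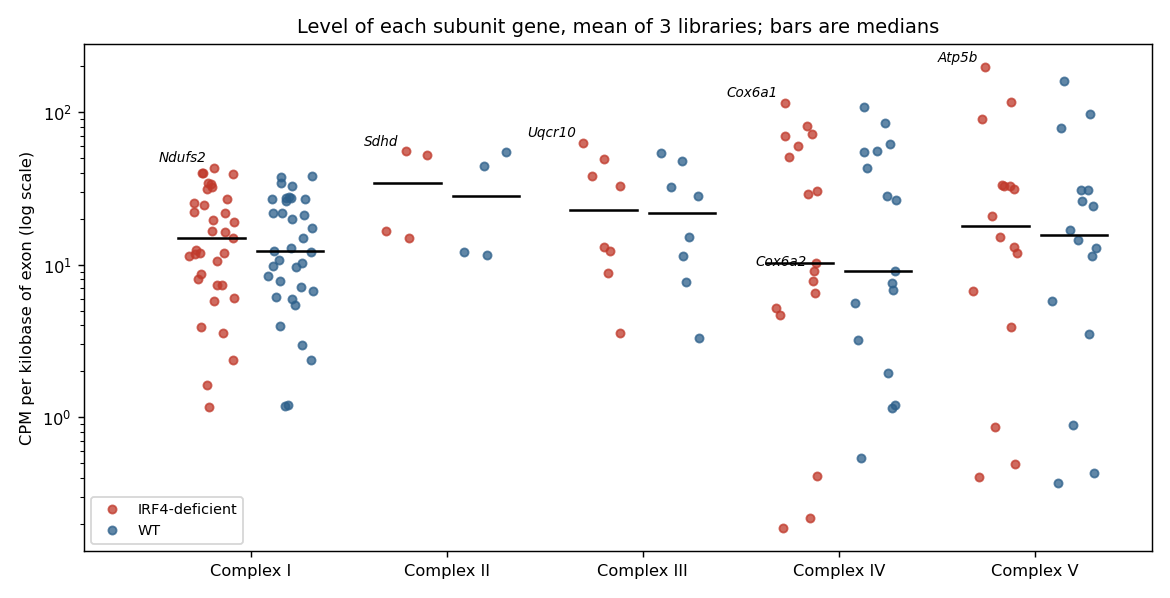
Mean level of each subunit gene in CPM per kilobase of exon (log scale), by complex, IRF4-deficient left and WT right, with the median as a bar; the highest gene of each complex and Cox6a2 are named beside the IRF4-deficient point. Levels within a complex spread far more than the groups differ.

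Other mitochondrial genes were mostly not called either. Among the 8 subunit or associated genes that the symbol rule leaves out, such as Cyc1 for cytochrome c1, 0 were called by edgeR, and Cycs, for cytochrome c, had the smallest p (log2 -1.04; edgeR adjusted p = 0.0859, unadjusted p under 0.05 for 1 lower and 0 higher). None of 12 complex I assembly genes was called, and 1 of 21 assembly genes for the other complexes was, Cox10, which makes heme A for complex IV (log2 0.72; edgeR adjusted p = 0.0141, and 0.0741 without WT replicate 2). Of 13 genes for coenzyme Q synthesis, Adck3 was called higher (log2 0.65; edgeR adjusted p = 0.0118), a call lost without IRF4-deficient replicate 1 or WT replicate 1, with adjusted p up to 0.0557. The mitochondrial ribosome had 1 of 75 genes called, Mrps25, lower (log2 -0.56; edgeR adjusted p = 0.0435), a call lost with the replicate block and on leaving out any single library but IRF4-deficient replicate 3, with adjusted p up to 0.180. The number called higher in this list was 3 without IRF4-deficient replicate 2, 2 without WT replicate 1 and 1 with the replicate block. No gene of 10 for mitochondrial DNA upkeep, 16 for fusion, fission and cristae or 12 for inner membrane carriers was called by edgeR, while at an unadjusted p under 0.05 the carriers had 2 higher and the other lists none. The import receptor Tomm70a was the 1 gene called among 26 for protein import, lower (log2 -0.63; edgeR adjusted p = 0.00105).

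Of 17 regulators of mitochondrial biogenesis, 3 were called lower (17.6%, against 10.5% of all tested genes) and none was called higher. In either direction this share lay below the 20.4% of the whole table. Esrrg, an orphan nuclear receptor, had a log2 fold change of -2.87 at a mean of 0.477 CPM in IRF4-deficient libraries and 3.53 CPM in WT libraries (edgeR adjusted p = 0.00195). Sirt1, a deacetylase, fell by 0.62 on the log2 scale (edgeR adjusted p = 0.00452). Prkaa1, a catalytic subunit of AMP-activated kinase, fell by 0.39 (edgeR adjusted p = 0.0273), and its call was lost without IRF4-deficient replicate 1 or 2 or WT replicate 1 or 3, with adjusted p up to 0.124. Ppargc1a and Nrf1, and Gabpa as given above, were not called.

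Of the pathways that feed electrons to the chain, fatty acid oxidation held a larger share of calls in either direction than the whole table. The citric acid cycle did not. In fatty acid oxidation 6 of 19 tested genes were called higher and 0 lower (31.6%, against 9.87% higher and 20.4% in either direction over all tested genes). The median gene differed by 0.34 on the log2 scale. Cpt1a, which brings long-chain fatty acids into mitochondria, averaged 135 CPM in IRF4-deficient libraries and 86.2 CPM in WT libraries (log2 0.64; edgeR adjusted p = 0.00703), and Acadvl, the first enzyme of very long chain oxidation, averaged 61.9 CPM in IRF4-deficient libraries and 40.6 CPM in WT libraries (log2 0.61; edgeR adjusted p = 0.00568). Hadh rose by 1.34 on the log2 scale (edgeR adjusted p = 0.0125), a call lost without IRF4-deficient replicate 2 or WT replicate 2, with adjusted p up to 0.0610. Without IRF4-deficient replicate 2 the count in this list was 2. In the citric acid cycle and pyruvate dehydrogenase, 4 of 25 genes were called (16.0%, against 20.4%), 3 of them higher, namely Idh2, Idh3b and Pdha1, with log2 fold changes of 0.73, 0.50 and 0.43 (edgeR adjusted p = 0.00877, 0.00382 and 0.0385). The count was 1 without IRF4-deficient replicate 1. Idh2 was also lost without WT replicate 2 (adjusted p up to 0.0594), and Pdha1 with the replicate block and without any single library but WT replicate 2 (adjusted p up to 0.131). Mdh2, malate dehydrogenase, was the 1 called lower, at a mean of 509 CPM in IRF4-deficient libraries and 887 CPM in WT libraries (log2 -0.80; edgeR adjusted p = 1.24703e-06).

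Glycolysis, set beside respiration, had 3 of 21 genes called higher (14.3%, against 9.87% of all tested genes), namely Aldoa, Ldha and Ldhb. Another 2 were called lower (9.52%, against 10.5%), the glucose transporter Slc2a3 (log2 -1.45; edgeR adjusted p = 4.42462e-08) and the enolase Eno2 (log2 -2.37; edgeR adjusted p = 1.43218e-06). The number called higher was 1 without WT replicate 2 or WT replicate 3, where Aldoa and Ldha were lost. Aldoa was also lost without IRF4-deficient replicate 2 and Ldha without IRF4-deficient replicate 1, with adjusted p up to 0.1001 for Aldoa and 0.137 for Ldha. Among 11 genes of peroxide defence, Prdx5 was called higher (log2 0.61; edgeR adjusted p = 0.0330, and up to 0.164 without IRF4-deficient replicate 2 or 3 or WT replicate 3) and Cat, catalase, lower (log2 -0.57; edgeR adjusted p = 0.000924). The number called higher in this list was 3 without IRF4-deficient replicate 1 and 2 by DESeq2 or with the replicate block. These lists are shown with the subunit genes in the plot of shares called.

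**Figure D5:**
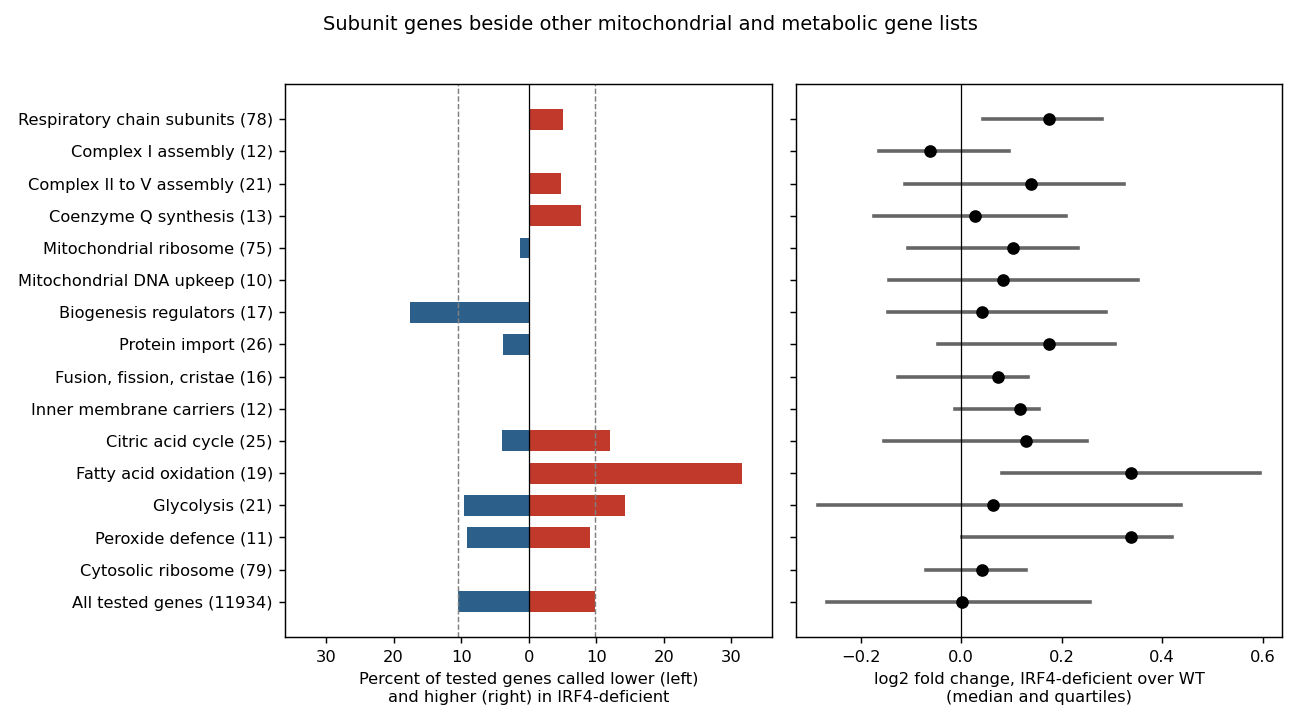
Left, percent of tested genes called lower (blue, to the left) and higher (red, to the right) in IRF4-deficient cells for each gene list, with the number tested in parentheses and dashed lines at the shares over all genes, 10.5% lower and 9.87% higher. Right, median and quartiles of the log2 fold change; subunit genes have a median of 0.17 and few calls, and fatty acid oxidation has 31.6% called higher.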

How the data were processed

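RNA-seq of 6 libraries was used, 3 IRF4-deficient and 3 WT. The authors deposited a table of raw counts per gene symbol. STAR, HTSeq and DESeq2 and the genome build mm10 are named in the submitters' processing notes, with no version; the annotation, the strand setting and any row filter were not given in the sources used here. The WT columns, numbered from 2 to 4, were matched to WT replicates 1 to 3 through the source names.

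The whole table was fitted with edgeR 4.0.16 in R 4.3.3 (filterByExpr, TMM, robust quasi-likelihood F test, 4 residual degrees of freedom), with Benjamini-Hochberg adjustment over the 11934 tested genes. CPM use the TMM-scaled library total, and levels per kilobase divide by merged exon length (GENCODE M21, which matched 80 of 81 subunit genes). The fit was tested on simulated counts. Alternatives were DESeq2 1.42.0, limma-voom 3.58.1, other scalings and filters, a replicate block and leaving out each library. Libraries of a group differed by 7.66 to 15.9 times counting noise (chi-square per degree of freedom).

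The subunit genes and all lists were chosen with earlier results of these data known. Genes named were Irf4, every called subunit gene (1 of them, in complex I, is not reported here), the 2 highest per kilobase and the 2 with the smallest p in each complex, isoform groups, and up to 3 genes, or all called when at most 5, from each other list; marker lists are given as sums. Genes named outside this rule (neighbours, Uqcr11, core subunits by role and a few regulators) were chosen after values were seen. Intervals cover the spread between libraries.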

Additional observations from a re-analysis of the deposited data

How the results depend on the processing

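Over the 15 alternatives to the fit, the number of subunit genes called higher was 3 to 5 except without IRF4-deficient replicate 3, WT replicate 2 or WT replicate 3, and none was called lower in any, although without the filter on low counts 1 had an unadjusted p under 0.05 for a lower level; leaving out 1 library gave 1 to 8 called higher. By complex, leaving out 1 library gave 0 to 2 called higher in complex I, 0 to 2 in complex II, 1 to 2 in complex IV and 0 to 2 in complex V, and the filter of 5 CPM in 3 libraries gave 0 in complex IV, since Cox6a2 was no longer tested. The median log2 fold change of complex V ran from 0.0905 to 0.3007 on leaving out 1 library. DESeq2 called 5 higher. With the replicate number as a block 4 were called higher, with a median of 0.1918; the labels do not pair the numbers, and same-numbered libraries deviated with correlations of -0.00479, 0.0512 and -0.0106, so the numbers were not taken as pairs. Assigning genes to complexes by function changed no count beyond 1.5 times. Among the genes named by rule, the estimates that changed sign were near 0 or at low counts. Other subunit genes also changed sign, since 64 of 78 were above 0 in the main fit and 54 without WT replicate 3. For the named genes the ranges were as follows. On leaving out 1 library the log2 fold change ran from -0.0767 to 0.146 for Ndufc2, -0.0726 to 0.199 for Ndufa13, -0.153 to 0.0145 for Sdha, -0.088 to 0.178 for Uqcrh, -0.00584 to 0.205 for Cox6a1, -0.244 to 0.23 for Cox8a, -0.0987 to 0.271 for Atp5g1 and -0.299 to 0.636 for Atp5g2. For Atp5g2 it was also 0.177 by limma-voom, 0.0528 with the replicate block and 0.000843 without Rn45s and Malat1. The cause of these changes was not tested. The call of Pdha1 and that of Mrps25 were lost with the replicate block. At 3 libraries a group, differences near the median of these genes were mostly not detectable one by one, with a median SE of 0.17 on the log2 scale.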

Other observations

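The other 3 called genes of fatty acid oxidation, named after their values were seen, include a further route of electrons to coenzyme Q. Etfb, a subunit of the electron transfer flavoprotein that takes electrons from acyl-CoA dehydrogenases, averaged 38.1 ± 3.21 CPM in IRF4-deficient libraries and 28.0 ± 0.627 CPM in WT libraries (SD, n = 3 each; log2 0.44; edgeR adjusted p = 0.0396). Slc25a20, the carnitine and acylcarnitine carrier of the inner membrane, averaged 33.0 CPM in IRF4-deficient libraries and 21.9 CPM in WT libraries (log2 0.58; edgeR adjusted p = 0.0318). Acaa2, the thiolase that ends the oxidation cycle, averaged 25.1 CPM in IRF4-deficient libraries and 14.9 CPM in WT libraries (log2 0.75; edgeR adjusted p = 0.0177). None of these 3 was called without IRF4-deficient replicate 2. The median deviation of this list from the WT mean, on the log2(CPM + 0.5) scale, was 0.310, 0.382 and 0.333 in IRF4-deficient libraries, against -0.0153, 0.0209 and -0.0337 in WT libraries. Here the WT libraries did not spread in the order of the subunit genes, and the groups were well apart.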
